A study of Homo sapiens with 4 samples.

Results

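The mRNA levels of 10 genes of the mTOR, ataxin-2 and autophagy pathways were examined after knockdown of STAU1 in SAS cells, which derive from a squamous carcinoma of the human tongue. The genes were MTOR, RPTOR, RICTOR, ATXN2, ATXN2L, ULK1, BECN1, MAP1LC3B, SQSTM1 and TFEB, taken by name from the reported link of STAU1 to mTOR and autophagy. They are 10 of the 67008 genes in the deposited table, and 9 of them were among the 14303 genes with enough reads to be tested. Both groups were wild-type cells infected with a virus that carries an shRNA. The 2 Ctrl libraries came from cells with an shRNA against luciferase (shLuc), which has no target in human cells, and the 2 shSTAU1 libraries from cells with an shRNA against STAU1. The model is thus 1 line with 1 shRNA per group, and nothing in the labels says that the 2 libraries of a group came from separate cultures, so the p-values measure the spread between these libraries, which may be technical. The libraries were made from total RNA with an exome capture kit, and their totals were 33009118 and 32206655 counts in Ctrl and 35180221 and 36301574 counts in shSTAU1.

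The labels also give a cell line name, C3H 10T1/2, which is a mouse fibroblast line, although their organism is human, so marker genes were read first. All 10 epithelial markers were detected, with KRT8, a keratin of simple epithelia, the most abundant at 5261 ± 381 CPM (counts relative to the library size after scaling by edgeR's TMM method) in Ctrl, ± being the SD of 2 libraries, and at 4851 ± 231 CPM in shSTAU1. The 10 markers of fibroblasts summed to 18.04 and 22.86 CPM in Ctrl and 11.05 and 10.24 CPM in shSTAU1, mostly from COL1A1, a chain of type I collagen. Of these markers, THY1, POSTN, COL3A1 and LUM had 0 or 1 count over the 4 libraries. The markers were thus those of epithelial cells, as oral cancer cells of the label are, and they do not identify the line. A count at or near 0 in this table does not show that a gene is not expressed, since genes that dividing cells use throughout, such as TUBB and RPS25, were also listed at 0. The epithelial markers summed to 16390 and 14750 CPM in Ctrl and 19200 and 15910 CPM in shSTAU1, so the groups overlapped, and 7 of the 10 had a fold change above 0 and 3 below. COL1A1 fell (log2 fold change of -1.35, adjusted p = 0.036), while KRT5, a keratin of basal cells (0.65, adjusted p = 0.0408), and SFN, an epithelial 14-3-3 protein (1.43, adjusted p = 0.0285), rose. The part of these shifts in the values below was not tested. In bulk RNA, a change in the number of cells of a kind and a change in RNA per cell cannot be told apart.

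mTOR is a kinase that works in a pair of complexes. In mTORC1 it is joined by raptor (RPTOR), which recruits substrates, and in mTORC2 by rictor (RICTOR). When nutrients are plentiful, mTORC1 at the lysosome favors protein synthesis and holds back autophagy, the process by which cells enclose and digest their own proteins and organelles, in part by phosphorylating the kinase ULK1 and the transcription factor TFEB. STAU1 binds double-stranded regions of RNA. It meets ataxin-2 (ATXN2), another RNA-binding protein, in stress granules, which are assemblies of stalled mRNAs, and a link from STAU1 to the MTOR mRNA and to autophagy has been reported in other systems. Whether the mRNAs of these genes differed after STAU1 knockdown is the question of the comparison. Much of the control of these proteins lies in phosphorylation and turnover, which RNA counts do not measure.

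STAU1 (ENSG00000124214) was itself read before the 10 genes. It had 8362 and 8218 counts in Ctrl and 1449 and 1467 counts in shSTAU1. The knockdown was thus present in both libraries that carry its label, at 16.6% of the control level. On the log2 scale STAU1 fell by 2.59 (adjusted p = 0.00103 in edgeR's quasi-likelihood test, standard error 0.13). Across the transcriptome, 372 of the 14303 tested genes had an adjusted p under 0.05 in the same test, a share of 2.6%.

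None of the 9 tested genes had an adjusted p under 0.05 in edgeR's test, against 2.6% of all tested genes, and 0 had one with DESeq2 (12.0% of 12084 genes) or limma-voom (2.54%). At an unadjusted p under 0.05 in edgeR's test there were 2, RPTOR and BECN1, where 24.5% of all tested genes had one. The libraries of the groups did not overlap for 5 of the 9, and they did not for 56.6% of all tested genes. The fitted log2 fold change was above 0 for 4 genes and below 0 for 5, with a median of -0.0035 (-0.239 without shSTAU1 replicate 1) against 0.0059 over all tested genes. The median size of the log2 fold change was 0.13, against 0.33 over all tested genes. Thus neither the count nor the size of the differences set these genes above the transcriptome as a whole. An exact permutation test on any of these genes has a smallest possible two-sided p of 0.333 at n = 2, and edgeR instead pools the spread over all genes, here a biological coefficient of variation of 19.1%.

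**Figure D1:**
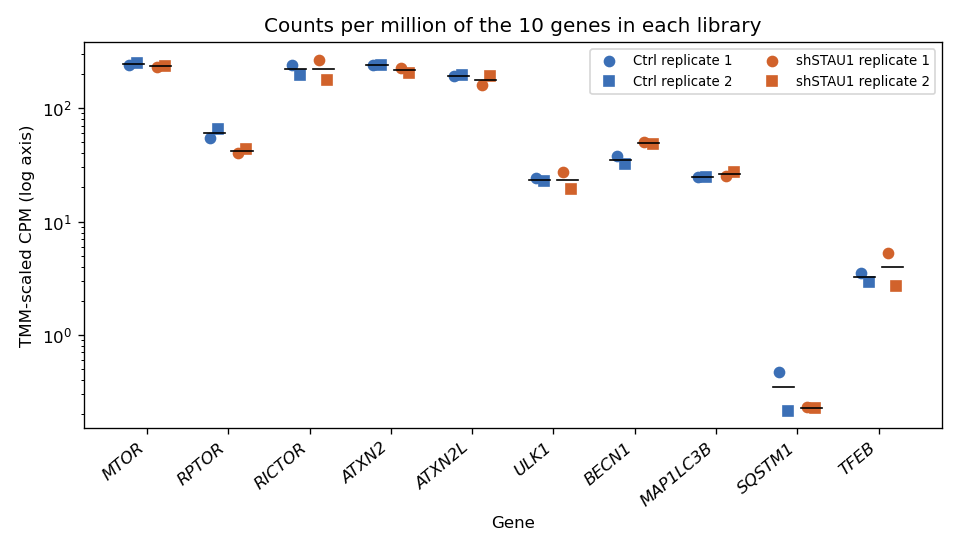
TMM-scaled CPM (log axis) of each of the 10 genes in the 2 Ctrl and 2 shSTAU1 libraries, with a bar at the mean of each group. RPTOR is lower and BECN1 is higher in both shSTAU1 libraries, TFEB and RICTOR overlap between the groups, and SQSTM1 lies at 0.214 to 0.476 CPM.

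STAU1 acts on the untranslated regions of many mRNAs, so short words of sequence in the 3′ untranslated regions of the 10 genes were also read, from a representative protein-coding transcript of each gene in GENCODE 29. The words AAGAGAA and AGAGAAA overlap by all but their end bases. They had been picked earlier on the fold changes of these same libraries, as words more frequent in lower genes, so their presence is a description and supports nothing about direction. Only the strand of the mRNA was searched. Either word occurred in 3 of the 10 genes, MTOR, MAP1LC3B and SQSTM1, and in 33.1% of the 11831 tested genes with a 3′ untranslated region. The 30 bases around each site are shown for these 3 genes as DNA letters of the mRNA strand on GRCh38, with the word in capitals. They lie in the 3′ untranslated region at chr1:11107150-11107179 (minus strand) for MTOR, chr16:87403673-87403702 (plus strand) for MAP1LC3B, and chr5:179837258-179837287 and chr5:179837879-179837908 (plus strand) for the first and second site of SQSTM1.
MTOR: acttaactcacAAGAGAActcatcataagt
MAP1LC3B: ccctgactcctAAGAGAAccacacccaaag
SQSTM1 first site: cgtttgcatagAGAGAAAtgattgacagta
SQSTM1 second site: cctgtccctgaAAGAGAAgatggccatgcc
The joined word of 8 bases, AAGAGAAA, was in none of the 10. RPTOR, the tested gene with the lowest fold change of the 10, held neither word in a 3′ untranslated region of 2038 bases, although 44.5% of the 4950 genes with a region of 1019 to 4076 bases held one. RICTOR held neither in 4385 bases, where 65.8% of 3136 genes with a region of 2192.5 to 8770 bases did.

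MTOR (ENSG00000198793, chromosome 1 of GRCh38 from 11106535 to 11262507, minus strand), the kinase of both complexes, had 242 and 249 CPM in Ctrl and 229 and 238 CPM in shSTAU1. Both shSTAU1 libraries were lower than both Ctrl libraries, by a narrow margin. The fitted difference was -0.07 on the log2 scale (standard error 0.12, adjusted p = 0.737 in edgeR's test), and its 95% confidence interval, from -0.35 to 0.20, spans 0.784 to 1.15 times the control level. Once length- and GC-dependent trends were removed from each library the value was 0.03, so no direction is given for MTOR.

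RPTOR (ENSG00000141564, chromosome 17 from 80544819 to 80966371, plus strand) encodes raptor, the subunit that presents substrates to mTORC1. It had 54.8 and 65.2 CPM in Ctrl and 40.6 and 43.8 CPM in shSTAU1. The groups did not overlap, and the Ctrl libraries lay farther from each other than the shSTAU1 libraries did. The mean in shSTAU1 was 70.4% of the mean in Ctrl, a log2 fold change of -0.51 with a 95% interval from -0.86 to -0.15. This difference had an unadjusted p of 0.0109 and an adjusted p of 0.0991 in edgeR's test, and so missed the threshold of 0.05. The adjusted p was 0.0558 with DESeq2 and 0.107 with limma-voom. With the replicate number as a block, which the labels do not call a batch, it was 0.000863 in edgeR's test. That fit called 4087 genes. The value rests on which libraries enter. Without shSTAU1 replicate 2 the adjusted p was 0.0326, and without Ctrl replicate 2 the log2 fold change was -0.38 with an adjusted p of 0.52.

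RICTOR (ENSG00000164327, chromosome 5 from 38937919 to 39074408, minus strand), the defining subunit of mTORC2, had 242 and 198 CPM in Ctrl and 267 and 178 CPM in shSTAU1. The shSTAU1 libraries lay outside the Ctrl libraries on either side. The fitted difference was 0.01 on the log2 scale (standard error 0.20, adjusted p = 0.973), and it was -0.31 without shSTAU1 replicate 1 and 0.26 without shSTAU1 replicate 2. Its exons share 229 of 13550 bases with OSMR, a cytokine receptor gene on the opposite strand, which had 18602 and 15793 counts in Ctrl and 11246 and 8994 counts in shSTAU1. As the strand setting of the counting is not given in the sources used here, the part of OSMR reads in the RICTOR counts was not tested.

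ATXN2 (ENSG00000204842, chromosome 12 from 111443485 to 111599676, minus strand) encodes ataxin-2, which binds mRNAs and the poly(A)-binding protein. It had 242 and 241 CPM in Ctrl and 228 and 205 CPM in shSTAU1. Both shSTAU1 libraries were below both Ctrl libraries, which differed little from each other. The fitted difference was -0.16 on the log2 scale (standard error 0.12, adjusted p = 0.465), with a 95% interval from -0.45 to 0.13. ATXN2L (ENSG00000168488, chromosome 16 from 28823035 to 28837237, plus strand), the ataxin-2-like paralog, had 193 and 196 CPM in Ctrl and 162 and 194 CPM in shSTAU1. Only shSTAU1 replicate 1 stood apart, and replicate 2 lay between the Ctrl libraries. Its value of -0.13 on the log2 scale (standard error 0.14, adjusted p = 0.599) became -0.0033 without shSTAU1 replicate 1.

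ULK1 (ENSG00000177169, chromosome 12 from 131894651 to 131923167, plus strand), the kinase that starts autophagy and a substrate of mTORC1, had 24.1 and 22.7 CPM in Ctrl and 27.2 and 19.5 CPM in shSTAU1. The shSTAU1 libraries again enclosed the Ctrl libraries. Its log2 fold change of -0.0035 (adjusted p = 0.994) had a 95% interval from -0.47 to 0.46. The value was -0.27 without shSTAU1 replicate 1 and 0.20 without shSTAU1 replicate 2.

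BECN1 (ENSG00000126581, chromosome 17 from 42810134 to 42833350, minus strand) encodes beclin 1, the scaffold of the lipid kinase complex that nucleates the autophagosome. It had 37.6 and 32.1 CPM in Ctrl and 50.5 and 48.4 CPM in shSTAU1. Both shSTAU1 libraries were higher than both Ctrl libraries, and the gap between the groups exceeded the spread within either. The mean in shSTAU1 was 142% of the mean in Ctrl, a log2 fold change of 0.50 with a 95% interval from 0.15 to 0.85. It had an unadjusted p of 0.0108 and an adjusted p of 0.0988 in edgeR's test, short of the threshold as for RPTOR. DESeq2 gave an adjusted p of 0.06 and limma-voom one of 0.103. With the replicate block, which called 4087 genes, the adjusted p of BECN1 was 0.00128 in edgeR's test. With 1 library left out the log2 fold change ran from 0.40 to 0.61. The exons of BECN1 share 300 of 6414 bases with PSME3, a proteasome activator gene on the opposite strand, which had 3504 and 4021 counts in Ctrl and 4619 and 6470 counts in shSTAU1. The part of those reads in the BECN1 counts was not tested.

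**Figure D2:**
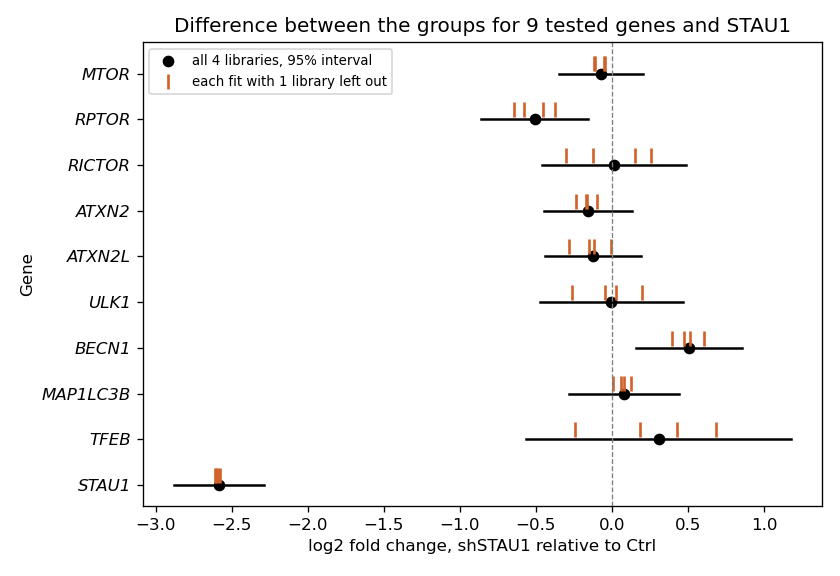
Log2 fold change of shSTAU1 relative to Ctrl for the 9 tested genes and STAU1, from edgeR with all 4 libraries (points, with 95% confidence intervals as bars) and from each fit with 1 library left out (ticks). The intervals of RPTOR and BECN1 leave out 0, those of the other 7 hold it, and the ticks of RICTOR, ULK1 and TFEB fall on both sides of 0.

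MAP1LC3B (ENSG00000140941, chromosome 16 from 87383995 to 87404779, plus strand) encodes LC3B, the protein that is joined to lipid on the autophagosome membrane. It had 24.8 and 24.9 CPM in Ctrl and 25.3 and 27.2 CPM in shSTAU1. The groups did not overlap, by a narrow margin, and the fitted difference was 0.08 on the log2 scale (standard error 0.15, adjusted p = 0.792), from 0.0055 to 0.13 with 1 library left out. The 95% interval of 0.822 to 1.36 times the control level bounds what these libraries could miss. MAP1LC3B2, a near-identical copy on another chromosome, had 118 and 103 counts in Ctrl and 174 and 183 counts in shSTAU1 (log2 fold change of 0.61, adjusted p = 0.208), so reads could be split between the pair and the MAP1LC3B level is uncertain by that much.

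TFEB (ENSG00000112561, chromosome 6 from 41683978 to 41736259, minus strand), the transcription factor that drives lysosomal and autophagy genes when mTORC1 is off, was the lowest of the tested genes. It had 118 and 96 counts in Ctrl and 183 and 96 counts in shSTAU1, or 3.51, 2.93, 5.25 and 2.71 CPM. Only shSTAU1 replicate 1 was high, and replicate 2 was the lowest of the 4. Its value of 0.31 on the log2 scale (standard error 0.37, adjusted p = 0.65) turned to -0.25 without shSTAU1 replicate 1, and it was 0.69 without shSTAU1 replicate 2. Its 95% interval, from 0.676 to 2.26 times the control level, was the widest of the 9.

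SQSTM1 (ENSG00000161011, chromosome 5 from 179806398 to 179838078, plus strand), which encodes the autophagy receptor p62, was listed with 16 and 7 counts in Ctrl and 8 and 8 counts in shSTAU1 and did not pass the filter on low counts. These counts are not read as its expression. The neighboring genes MAML1, LTC4S, MGAT4B and MRNIP had 1 count or none in all 4 libraries together, while CANX before them had 2424 and TBC1D9B after them had 700. TUBB, a tubulin, and RPS25, a ribosomal protein, which dividing cells use throughout, were also listed at 0 along with genes on either side of them. Of the 19934 protein-coding genes in the table, 25.1% were at 0 in every library. Why these genes have no counts was not tested. The p62 mRNA was thus not measurable here in either group.

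**Figure D3:**
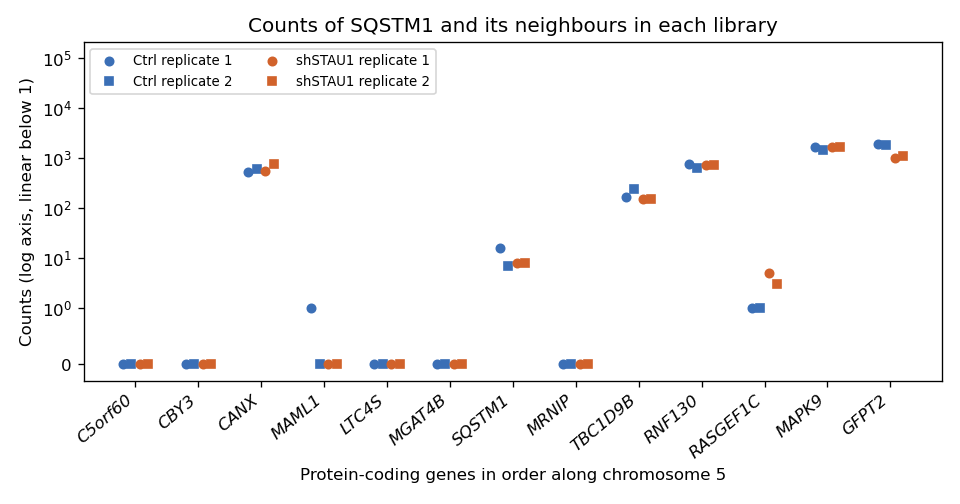
Counts (log axis, linear below 1) of SQSTM1 and the 6 protein-coding genes on either side of it, in order along chromosome 5, in each of the 4 libraries. SQSTM1 has 7 to 16 counts and its nearest neighbors on both sides have none, between CANX with 534 to 745 counts and TBC1D9B with 148 to 237.

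Levels of the 10 genes were then compared with each other per kilobase of transcript. In Ctrl, ATXN2 stood at 51.4 ± 0.213 CPM per kilobase (SD, n = 2) and ATXN2L at 48.8 ± 0.477, followed by MTOR at 28.3 ± 0.557 and RICTOR at 23.1 ± 3.27, and each of these pairs lay farther apart than the spread of either gene. BECN1 was at 16.5 ± 1.82 CPM per kilobase. RPTOR at 9.36 ± 1.15 and MAP1LC3B at 9.25 ± 0.0241 did not differ beyond their spread. ULK1 at 4.41 ± 0.198 and TFEB at 1.37 ± 0.173 were lowest among the tested genes. In shSTAU1 the ataxin-2 genes were again first, at 46.0 ± 3.52 for ATXN2 and 44.7 ± 5.66 for ATXN2L, within each other's spread. BECN1 at 23.4 ± 0.697 and RICTOR at 23.3 ± 6.54 CPM per kilobase were then level, and RPTOR at 6.59 ± 0.348 lay below MAP1LC3B at 9.76 ± 0.496. Capture probes of an exome kit sit mainly on coding exons, and per kilobase of coding sequence MAP1LC3B, which has a short coding region, came first in Ctrl with 66.3 ± 0.173 CPM, ahead of ATXN2 with 61.3 ± 0.254. The order between genes thus depends on the length used, and the order of the groups within a gene does not.

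The difference between replicates 1 and 2 was also compared between the groups. In all 9 tested genes it had the same sign in Ctrl and in shSTAU1, with replicate 1 higher for 5 genes and lower for 4, as it had in 63.9% of all tested genes. Some of these signs rest on very small differences, in Ctrl -0.0053 for MAP1LC3B and 0.0084 for ATXN2 on the log2 scale. For RICTOR, replicate 1 over replicate 2 was 0.29 on the log2 scale in Ctrl and 0.58 in shSTAU1. For TFEB the same difference was 0.26 in Ctrl and 0.95 in shSTAU1. Longer transcripts also tended to have the lower fold changes, with a Spearman correlation of -0.57 between transcript length and log2 fold change over the 9 genes, which share libraries and are not independent. It was -0.34 over the tested pathway genes together and -0.12 over all tested genes, and in single lists it ran from -0.78 (ATG8 list) to 0.0952 (mTORC1 substrates).

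The pathways were read from 9 lists of genes by their role, which hold the 10 genes as well, 183 genes in all, of which 170 were tested. In edgeR's test 5 passed the threshold, or 2.94% against 2.6% of all tested genes, 3 higher and 2 lower. An unadjusted p under 0.05 was found for 36 of the 170, RPTOR and BECN1 among them, where 24.5% of all tested genes had one. For the lists without such a count below, it was 10 of 33 upstream regulators and 3 of 18 ataxin-2 and stress granule genes. It was 2 of 14 selective autophagy receptors and 8 of 36 genes of the TFEB list. The median log2 fold change of the 170 was 0.07, against 0.0059 over all tested genes. Without Ctrl replicate 1 none of the 5 passed, and without Ctrl replicate 2 only G3BP1 of them did (adjusted p = 0.0376). When every gene with a read was tested, none of the 5 passed (adjusted p from 0.0989 to 0.106). Without shSTAU1 replicate 1 there were 31 listed genes past the threshold and 2620 of all genes, and without shSTAU1 replicate 2 there were 22 and 1734, against 5 and 372 with all libraries, so passing in these fits is not particular to a gene named for it. Of the 37 genes that the naming rule covers and that did not pass, members of the 10 included, 21 had a log2 fold change that moved by over 1.5 times with some library left out. The medians of single lists moved with the library left out, those of the mTOR complexes, initiation, fusion and TFEB lists to both sides of 0. The listed genes SESN2, MAP1LC3C, ATG16L1, PLEKHM1, VPS11 and NEU1 were listed at 0 and not tested.

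**Figure D4:**
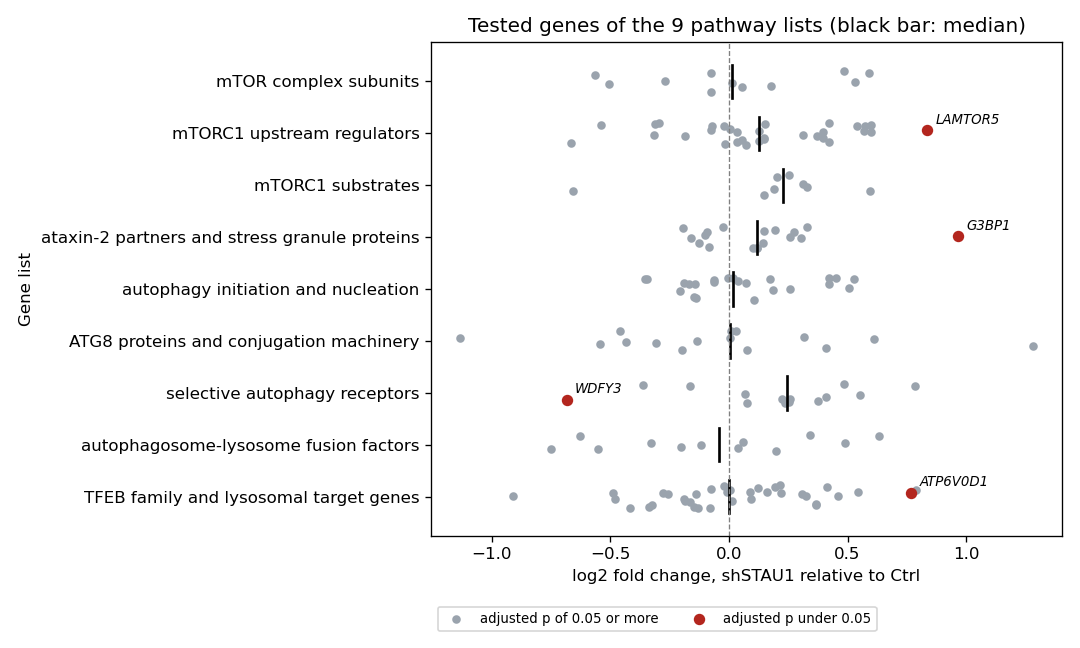
Log2 fold change of shSTAU1 relative to Ctrl for the tested genes of each of the 9 pathway lists (points, with a black bar at the list's median). LAMTOR5, G3BP1, WDFY3 and ATP6V0D1, each with an adjusted p under 0.05, are in red, 1 gene that is not reported here is not drawn, and the medians lie from -0.04 to 0.24.

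Among the 11 subunits of the mTOR complexes none passed edgeR's test or that of DESeq2. In edgeR's test 1 had an unadjusted p under 0.05 (RPTOR), against 24.5% of all tested genes. The median log2 fold change was 0.01, ranging from -0.11 without Ctrl replicate 1 to 0.25 without Ctrl replicate 2. The values farthest above 0 were those of PRR5L (0.59, adjusted p = 0.316), an mTORC2 partner, and MLST8 (0.53, adjusted p = 0.238), a subunit of both complexes. MLST8 was at 0.81 without shSTAU1 replicate 1 (adjusted p = 0.00935) and at 0.17 without shSTAU1 replicate 2. The lowest were those of DEPTOR, an inhibitor of both complexes, at -0.56 (adjusted p = 0.619), and RPTOR. DEPTOR had 0.386 to 1.01 CPM in the 4 libraries, and its value changed sign without Ctrl replicate 2.

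Upstream regulators of mTORC1 gave 2 of the 5 called genes, of 33 tested. Their median log2 fold change was 0.13, from 0.096 without Ctrl replicate 1 to 0.20 without Ctrl replicate 2. LAMTOR5, a subunit of the Ragulator that holds mTORC1 at the lysosome, had 16.4 and 16.8 CPM in Ctrl and 30.0 and 29.2 CPM in shSTAU1. It rose by 0.84 on the log2 scale (standard error 0.16, adjusted p = 0.0424), and by 0.76 after the length and GC correction (adjusted p = 0.0563). The libraries of a group lay close together and far from the other group. Other values were 0.60 for SEH1L (adjusted p = 0.0849), a GATOR2 subunit, and -0.67 for FNIP2 (adjusted p = 0.164), a partner of folliculin. Without shSTAU1 replicate 1 SEH1L was at 0.78 and FNIP2 at -0.46. Without shSTAU1 replicate 2 SEH1L was at 0.38 and FNIP2 at -0.92. DESeq2 called SEH1L with all libraries (adjusted p = 0.0228), and RRAGA, a Rag GTPase (adjusted p = 0.0363). RHEB, the GTPase that switches mTORC1 on, was named after its value was seen, at 68.8 ± 0.768 CPM in Ctrl against 90.7 ± 4.70 CPM after knockdown (SD of 2 libraries), which is 0.40 on the log2 scale (adjusted p = 0.116).

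None of the 8 tested genes in the list of mTORC1 substrates passed edgeR's test, and 2 had an unadjusted p under 0.05, against 24.5% of all tested genes. Of the 8, 7 lay above 0, with a median of 0.23, which was 0.12 without shSTAU1 replicate 2. The list does not hold ULK1 (-0.0035) and TFEB (0.31), which mTORC1 also phosphorylates. Within the list LPIN1, a lipid phosphatase, had the lowest value (-0.66, adjusted p = 0.0544). MAF1, a repressor of RNA polymerase III, had the highest (0.59, adjusted p = 0.0613), followed by EIF4EBP2, a brake on cap-dependent translation (0.33, adjusted p = 0.405). EIF4EBP2 was at 0.50 without shSTAU1 replicate 1 and at 0.12 without shSTAU1 replicate 2. Without shSTAU1 replicate 1 or without shSTAU1 replicate 2 both LPIN1 (adjusted p = 0.00234 and 0.0119) and MAF1 (adjusted p = 0.00799 and 0.0287) passed. DESeq2 called both with all libraries (adjusted p = 0.00463 for LPIN1 and 0.0131 for MAF1), and LPIN1 also passed edgeR's test with library size alone (adjusted p = 0.0459). RPS6KB2, an S6 kinase, was second from below at 0.15 (adjusted p = 0.588).

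In the list of ataxin-2 partners and stress granule proteins, 1 of 18 tested genes passed. G3BP1, the protein that nucleates stress granules, had 351 and 405 CPM in Ctrl and 628 and 849 CPM in shSTAU1. Both shSTAU1 libraries were well above both Ctrl libraries, although unequal to each other. G3BP1 rose by 0.97 on the log2 scale (standard error 0.17, adjusted p = 0.0366), and by 0.71 without shSTAU1 replicate 2. CAPRIN1, its partner in these granules, had a value of 0.33 (adjusted p = 0.184), and of 0.43 without shSTAU1 replicate 1 (adjusted p = 0.0273) and 0.20 without shSTAU1 replicate 2. The lowest were DDX6, an RNA helicase bound by ataxin-2, at -0.20 (adjusted p = 0.485), and ATXN2 itself. DDX6 was at -0.0061 without shSTAU1 replicate 1 and at -0.43 without shSTAU1 replicate 2. The median of the list was 0.12, and 0.0215 without shSTAU1 replicate 2.

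No gene of autophagy initiation and nucleation (23 tested, median 0.02) or of the ATG8 proteins and their conjugation machinery (15 tested, median 0.0036) passed edgeR's test. In that test 3 in each list had an unadjusted p under 0.05, against 24.5% of all tested genes. DESeq2 called ATG4C of the second list (adjusted p = 0.00178), which also passed edgeR's test with library size alone (adjusted p = 0.048), and none of the first. With 1 library left out the first median ran from -0.0986 to 0.10, and the second from -0.22 to -0.0342, below 0 in each of the 4 fits. The second was -0.0976 after the length and GC correction. In the first list, WDR45, a lipid-binding scaffold, had the highest value (0.53, adjusted p = 0.429, and 0.0293 without shSTAU1 replicate 1) before BECN1, and UVRAG, a beclin 1 partner, had the lowest (-0.35, adjusted p = 0.154), next to ULK2 (-0.35, adjusted p = 0.712). ULK2, the paralog of ULK1, had 1.41 to 3.83 CPM and changed sign with a library left out. In the second list, ATG4C, a protease that trims ATG8 proteins, had 14.6 and 15.1 CPM in Ctrl and 5.51 and 8.003 CPM in shSTAU1. This difference, -1.13 on the log2 scale with a standard error of 0.24, missed the threshold with an adjusted p of 0.0544. It passed without shSTAU1 replicate 1 (adjusted p = 0.0107) and without shSTAU1 replicate 2 (adjusted p = 0.000939). ATG4A, of the same family, was at -0.54 (adjusted p = 0.244). GABARAP, an ATG8 protein, had the highest value (1.28, adjusted p = 0.252), at 0.178 to 0.574 CPM in the 4 libraries.

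Among 14 tested receptors and adaptors of selective autophagy, 1 passed. WDFY3, a large adaptor that links protein aggregates to the autophagy machinery, had 247 and 245 CPM in Ctrl and 154 and 152 CPM in shSTAU1. The libraries of each group were nearly equal. WDFY3 fell by 0.68 (standard error 0.12, adjusted p = 0.036), and by 0.53 after the length and GC correction (adjusted p = 0.0623). OPTN, a receptor for damaged mitochondria and bacteria, had the next lowest value (-0.36, adjusted p = 0.381). It was -0.76 without shSTAU1 replicate 1 (adjusted p = 0.000484) and -0.074 without shSTAU1 replicate 2. RETREG1 (0.78, adjusted p = 0.231) and TEX264 (0.55, adjusted p = 0.129), both receptors for the endoplasmic reticulum, had the highest, and RETREG1 passed without shSTAU1 replicate 2 (1.16, adjusted p = 0.0329) and was at 0.24 without shSTAU1 replicate 1. The median of the list was 0.24, and 0.0788 without Ctrl replicate 2. The 3′ untranslated region of WDFY3, 3258 bases long, holds AAGAGAAA at 2 places, shown here because it is the called gene with the longest match. As the words were picked on these same fold changes as more frequent in lower genes, a match in a lower gene supports nothing. G3BP1, which rose, also holds AGAGAAA. Either of the shorter words was in 57.0% of the 4061 genes with a region of 1629 to 6516 bases. The share with AAGAGAAA itself was not computed.
WDFY3 first site: tagctgtctccAAGAGAAAaatcctcactt
WDFY3 second site: actaggtctccAAGAGAAAatagaaaggct
These lie at chr4:84672574-84672603 and chr4:84671094-84671123 of GRCh38, on the minus strand.

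None of the 12 tested factors of autophagosome fusion with lysosomes passed edgeR's test, and 4 had an unadjusted p under 0.05, against 24.5% of all tested genes. Their median was -0.04, from -0.15 to 0.0336 with 1 library left out. SNAP29, a fusion protein (0.63, adjusted p = 0.0852), and RAB7A, the GTPase of late endosomes (0.49, adjusted p = 0.0712), had the highest values. TECPR1, a tether (-0.75, adjusted p = 0.142), and VPS33A, a subunit of tethering complexes at 0.424 to 0.684 CPM (-0.63, adjusted p = 0.505), had the lowest. DESeq2 called RAB7A (adjusted p = 0.0233) and SNAP29 (adjusted p = 0.0357). SNAP29 passed without shSTAU1 replicate 2 (adjusted p = 0.0227), and RAB7A (adjusted p = 0.00578) and TECPR1 (adjusted p = 0.0392) without shSTAU1 replicate 1.

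TFEB relatives and lysosomal target genes were the longest list, with 36 tested genes, 18 above 0 and 18 below, and a median of -0.0012, from -0.12 to 0.0565 with 1 library left out. In edgeR's test only ATP6V0D1 passed, a subunit of the proton pump that acidifies lysosomes. It had 41.9 and 44.4 CPM in Ctrl and 70.7 and 76.2 CPM in shSTAU1, a rise of 0.77 (standard error 0.14, adjusted p = 0.0366), with the groups far apart. After the length and GC correction the rise was 0.68 (adjusted p = 0.0576). GAA, the acid alpha-glucosidase, had the lowest value (-0.91, standard error 0.34, adjusted p = 0.154), from 90.6 and 58.7 CPM in Ctrl and 53.5 and 26.1 CPM in shSTAU1, where replicates 1 and 2 differed widely in both groups. GAA was at -1.52 without shSTAU1 replicate 1 and at -0.50 without shSTAU1 replicate 2. It was at -0.58 without Ctrl replicate 1 and at -1.19 without Ctrl replicate 2. DESeq2 called GAA with all libraries (adjusted p = 0.0196), and ATP6V1D of the same list (adjusted p = 0.0227). ATP6V0E1, another pump subunit, was at -0.49 (adjusted p = 0.146, and 0.0497 without shSTAU1 replicate 2), and CTSF, a cathepsin, at 0.79 (adjusted p = 0.265), from 0.26 without shSTAU1 replicate 1 to 1.16 without shSTAU1 replicate 2.

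TFEB binds an E-box motif in the promoters of lysosomal genes, so the letters GTCACGTG were searched on both strands in RefSeq promoter windows on GRCh38.p14, from 250 bases before to 50 bases after each start. They were in 2.4% of all 35116 windows and in 8 of the 29 windows of the 23 list genes with a window (27.6%), but in 0 of the 13 windows of 9 of the 10 genes. The motif was not particular to this list, as 4 of the 11 windows of the fusion list (36.4%) and 5 of the 41 of the upstream regulators (12.2%) held it. The shorter motif CACGTG, which lies within it, was in 7.26% of all windows and also in none of these 13. The sites of ATP6V0D1 and GAA are printed, as the called and the lowest gene of the list, with the motif in capitals.
ATP6V0D1: gcccccttatgGTCACGTGaggcgcttgcg
GAA: cgggaggccgcGTCACGTGacccaccgcgg
They lie at chr16:67481200-67481229 (minus strand) and chr17:80101492-80101521 (plus strand). The genes of this list with the motif had fold changes on both sides of 0, from GAA at -0.91 to ATP6V0D1 at 0.77. A match describes these letters and not binding of TFEB, which was not measured.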

How the data were processed

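The authors deposited whole-number read counts per gene for 2 Ctrl and 2 shSTAU1 libraries, without normalization. Per the labels' processing notes the build was hg38 and the software Partek; the aligner, counting program and strand setting are not given in the sources used here. Symbols were matched through name tables (60295 of 67008 identifiers), and positions, lengths and sequences were taken from GENCODE 29 on GRCh38, which holds 58561 of the identifiers and 99.9% of the counts. No sample column was left unmapped.

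Counts were compared by edgeR 4.0.16 under R 4.3.3 (filterByExpr with a minimum count of 10, TMM, the quasi-likelihood test on all 4 libraries, group only, Benjamini-Hochberg over 14303 genes, which hold 99.9% of the counts). Adjusted p-values without another tool named are from this fit. CPM is relative to TMM-scaled library size. Replicate libraries were not duplicates of each other (chi-square of 25.4 per degree of freedom for Ctrl and 61.6 for shSTAU1). Standard errors were the log2 fold change over the root of F. The code of the models was checked on simulated counts that vary less between libraries than these do, so the check does not show how the models perform here. The alternatives were DESeq2 1.42.0, limma-voom (limma 3.58.1), library size alone, no filter, other thresholds, leaving out each library, the replicate number as a block, and removal of each library's trend with length and GC content (mgcv 1.9.3), which covers 99.0% of the tested genes.

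The 10 genes, the pathway lists, the tests and the words were chosen with earlier results of these data known. Named genes are the 10, STAU1, near copies or overlapping genes, and in each list every gene past the threshold and the 2 highest and 2 lowest fold changes. RHEB, RRAGA, LAMTOR1 to LAMTOR4 and ATP6V1D were named after their values were seen. One gene that this rule covers is left out of the text.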

Additional observations from a re-analysis of the deposited data

How the results depend on the processing

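STAU1 passed the threshold under each alternative listed in the processing, at -2.64 to -2.57 on the log2 scale. Against 372 genes past the threshold, DESeq2 gave 1449, no filter gave 11, an adjusted p under 0.10 gave 1585, and the study's criterion for another experiment (unadjusted p under 0.05 and a 1.5-fold change) gave 2098. With 1 library left out, where the lone library is assumed to vary like the other group, the count ran from 214 to 2620. The count among the 10 genes was 0 under DESeq2, limma-voom, library size alone, no filter, the length and GC correction and the fold change criterion. It was 2 (RPTOR and BECN1) at an adjusted p under 0.10, and 0 to 1 with 1 library left out, where the 1 was RPTOR. Among listed pathway genes, against 5, DESeq2 gave 14, no filter 0, the length and GC correction 2 (G3BP1 among them), and an adjusted p under 0.10 16 and the fold change criterion 14, and 0 to 31 passed with 1 library left out. The median log2 fold change of the 9 tested genes was -0.239 without shSTAU1 replicate 1 and ran from -0.239 to 0.0272 over the fits with 1 library left out. The cause was not tested.

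Labels share replicate numbers but do not say that a number marks a batch. Deviations of same-numbered libraries from their group means correlated at 0.27. Adding the number to the fit as a replicate block, edgeR called 4087 of 14303 genes, 2208 higher and 1879 lower. Among them were 2 of the 10 genes (RPTOR, adjusted p = 0.000863, and BECN1, adjusted p = 0.00128, in edgeR's test) and 46 of the 170 tested pathway genes. With the block and the length and GC correction these counts were 3256, 2 and 39. STAU1 was past the threshold in both (-2.59 and -2.57).

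These values changed sign. MTOR was 0.0251 with the length and GC correction and 0.0239 with the block as well. RICTOR was -0.0363 with library size alone, -0.0086 with limma-voom and -0.0075 with the block, and ran from -0.31 to 0.26 with 1 library left out. ULK1 was 0.0047 with the correction and 0.000679 with the block as well, and ran from -0.27 to 0.20 with 1 library left out. The corresponding ranges were -0.25 to 0.69 for TFEB, -1.11 to 0.28 for DEPTOR, -0.0416 to 0.30 for RPS6KB2 and -0.96 to 0.35 for ULK2. TFEB had 96 to 183 counts per library, and the cause of its wide range was not tested.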

Other observations

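Subgroups of the pathway lists were looked at after their values were seen, so they are given as values with no test. Over all tested genes 2.6% passed the threshold and 24.5% had an unadjusted p under 0.05. All 5 Ragulator subunits had a fold change above 0, with a median log2 fold change of 0.54, and 1 of them (LAMTOR5) passed the threshold in edgeR's test. An unadjusted p under 0.05 in that test was found for 3 of these 5. LAMTOR1 was at 0.60 (adjusted p = 0.0961), LAMTOR4 at 0.54 (adjusted p = 0.134), LAMTOR3 at 0.31 (adjusted p = 0.364) and LAMTOR2 at 0.15 (adjusted p = 0.636). RRAGA, a Rag GTPase that the Ragulator holds at the lysosome, was at 0.57 (adjusted p = 0.0777). Of the 8 proton pump subunits 7 were above 0, with a median of 0.21 and 1 past the threshold (ATP6V0D1). In edgeR's test 5 of these 8 had an unadjusted p under 0.05. ATP6V1D was next at 0.54 (adjusted p = 0.0737), and ATP6V0E1 was the exception. The 19 tested lysosomal hydrolases, 7 above 0 and 12 below, had a median of -0.07 and none past the threshold in edgeR's test, with 3 at an unadjusted p under 0.05. The pump and the hydrolases, both counted among TFEB target genes, thus had medians on opposite sides of 0 with all 4 libraries, and the difference was not tested. Neither median was computed with a library left out. The median of the whole TFEB list ran from -0.12 to 0.0565 in such fits.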
